A study of Mus musculus with 12 samples.

Results

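The interleukin-17 programme was followed through 9 genes: the cytokine genes Il17a and Il17f, the cytokine receptor genes Il23r, Il1r1 and Il18r1, the transcription factor gene Sox13, the kinase gene Blk, and the surface genes Cd163l1 and Tmem176a. They were chosen by name as type 17 cytokine, receptor and regulator genes, and were read from a table of raw counts that held 52459 genes. RNA had been sequenced from flow-sorted T cells of mice that were 7 weeks old when feeding began and ate for 6 weeks either a control diet or the MCD diet, which lacks methionine and choline. The 12 libraries made 6 pairs: γδ T cells sorted from wild-type C57BL/6 mice on the control diet (replicates 6 and 7) and on the MCD diet (replicates 2 and 4), CD4+ T cells of wild-type C57BL/6 mice on the control diet (replicates 2 and 3) and on the MCD diet (replicates 1 and 3), and CD4+ T cells of γδTCR-/- mice, called knockout here, on the control diet (replicates 1 and 2) and on the MCD diet (replicates 1 and 2). The knockout mice are described only as lacking the γδ T cell receptor, with no allele or strain background given, so γδ T cells were studied in wild-type mice alone. No label gives the organ that the cells were sorted from, nor whether the replicates of a group were separate animals, so p-values measure the spread between these libraries, which may be technical.

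Interleukin-17 is a cytokine that acts on epithelial, stromal and other cells to recruit neutrophils, and in the liver γδ T cells are a known source of it. γδ T cells committed to interleukin-17 in the thymus depend on Sox13, and they carry receptors for interleukin-23 and interleukin-1, which can trigger the cytokine without antigen. CD4+ T cells reach the same programme as Th17 cells, after stimulation in the presence of interleukin-6 and transforming growth factor-β.

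Many nuclear receptors recognise a DNA element whose core is the half-site AGGTCA. The 250 bases before each RefSeq start (build GRCm38.p6) were searched on both strands for this half-site. A second search, also on both strands, looked for AACAAT, a core that SOX proteins recognise. The promoter table held 8 of the 9 genes, all but Blk. Il17a, Il17f and Il23r held the half-site, and among all 32851 promoters of this length 14% held it. Tmem176a held AACAAT in the first of its 2 windows only, and annotated exons cover all 250 bases of that window. Of all promoters 9.42% held AACAAT. The 4 sequences below are shown because they are the cytokine genes, the receptor gene of the same promoter pattern, and Cd163l1, which had a large difference between the cell types and neither motif. Capitals mark the half-site, each sequence runs 5′ to 3′ up to the base before the first start on the strand of its gene, and no overlap between the motifs occurred.
Il17a: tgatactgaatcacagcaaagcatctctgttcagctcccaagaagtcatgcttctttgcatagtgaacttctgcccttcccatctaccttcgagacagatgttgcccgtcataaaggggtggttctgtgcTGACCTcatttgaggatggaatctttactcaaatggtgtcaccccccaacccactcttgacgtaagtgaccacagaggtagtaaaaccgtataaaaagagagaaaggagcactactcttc
Il17f: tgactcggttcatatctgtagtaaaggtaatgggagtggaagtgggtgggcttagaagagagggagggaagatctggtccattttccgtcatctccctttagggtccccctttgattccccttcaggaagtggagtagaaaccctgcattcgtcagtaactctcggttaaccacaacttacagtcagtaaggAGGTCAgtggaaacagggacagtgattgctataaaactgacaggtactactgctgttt
Il23r: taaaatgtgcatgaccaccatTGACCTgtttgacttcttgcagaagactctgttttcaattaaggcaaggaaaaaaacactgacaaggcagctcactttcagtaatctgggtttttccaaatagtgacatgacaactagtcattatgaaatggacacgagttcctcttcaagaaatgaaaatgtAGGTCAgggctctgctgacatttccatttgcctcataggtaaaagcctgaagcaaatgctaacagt
Cd163l1: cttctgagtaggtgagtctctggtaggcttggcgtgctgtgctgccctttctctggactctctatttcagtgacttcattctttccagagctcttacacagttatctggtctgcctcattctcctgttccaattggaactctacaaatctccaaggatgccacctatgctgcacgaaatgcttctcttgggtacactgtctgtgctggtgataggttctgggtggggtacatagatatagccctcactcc
The Il17a window lies at chr1:20730655-20730904 on the plus strand, and its half-site begins 120 bases before the start, on the opposite strand. The Il17f window lies at chr1:20784271-20784520 on the minus strand, with the half-site 58 bases before the start. This window lies inside the Il17f gene of the GENCODE annotation given below, and annotated exons cover 26 of its bases. Il23r, at chr6:67491856-67492105 on the minus strand, held a pair of half-sites, at 229 and 66 bases before the start. The Cd163l1 window lies at chr7:140218017-140218266 on the plus strand. A match describes letters and shows no binding, and the count data do not bear on which protein occupies these windows.

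In the GENCODE vM21 annotation (GRCm38), Il17a lies on chromosome 1 at chr1:20730905-20734496 on the plus strand, and Il17f at chr1:20777146-20790617 on the minus strand, 42649 bases away. Il1r1 (chr1:40225080-40317257) and Il18r1 (chr1:40465552-40500854) share a cluster of interleukin-1 receptor genes on the plus strand of chromosome 1, and Sox13 lies on the same chromosome at chr1:133382303-133424377 on the minus strand. Il23r lies at chr6:67422932-67491855 on the minus strand, Tmem176a at chr6:48840919-48847071 on the plus strand, Cd163l1 at chr7:140218267-140231145 on the plus strand and Blk at chr14:63372836-63417037 on the minus strand. Tmem176a and Tmem176b, on opposite strands, overlap by 578 bases. Whether reads were counted by strand is not given in the sources used here, so reads of that overlap cannot be told apart. All values are counts over whole genes, with exons combined.

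Total counts were 17035638 to 23203603 per library, of which mitochondrial genes took 40.8% to 56.8%. The γδ libraries of the MCD diet stood apart: they held the fewest genes with at least 10 counts (8989 and 10125, against 11903 to 13402 in the other 10), and Pearson's r of log2(CPM + 1) across genes between their replicates was 0.754, against 0.855 to 0.916 in the other groups. Replicate 2 of that group, the shallowest in genes, carries a sample label unlike the others. Levels below are counts-per-million (CPM) scaled by TMM, edgeR's correction for library composition. A count of 0 allows up to 3 counts, which is 0.13 to 0.248 CPM depending on the library and covers counting error only. The δ-chain constant gene Trdc had 7552 to 14401 counts in the γδ and 5 to 165 in the CD4+ libraries, and Cd4 18 to 52 and 13734 to 30107, as the sort labels say. Trac was separate too, with 365 to 1298 and 7003 to 13616 counts. Other receptor constant genes were less so. Tcrg-C2 had 1832 and 2824 counts in wild-type CD4+ control libraries, against 7033 to 20691 in γδ libraries. Trbc1 overlapped, at 62.0 to 173 CPM in γδ and 86.5 to 170 CPM in CD4+ libraries. Markers of other cells were not at 0 in the γδ libraries. The 11 genes of a macrophage and Kupffer cell list, of which 8 to 11 were detected in a γδ library, summed to 935 to 2280 CPM in the 4 γδ libraries and 15.1 to 61.4 CPM in the 8 CD4+ libraries, with Lyz2 at 12109 to 23117 and 56 to 645 counts. Of the Kupffer cell genes on that list, Clec4f and Timd4 were at 0 in both γδ MCD libraries and Vsig4 had 3 counts in replicate 2 and 411 in replicate 4, the most of any library. The 8 genes of a neutrophil and monocyte list summed to 310 to 836 CPM in γδ and 36.2 to 144 CPM in CD4+ libraries. Ccr2 gave 245 to 633 CPM of the γδ sums and 34.3 to 116.5 CPM of the CD4+ sums. It is also listed below as a marker of γδ T cells that make interleukin-17. In the γδ control libraries S100a8 had 1 and 0 counts and S100a9 had 0 and 48. The 5 genes of an innate lymphoid and NK cell list summed to 138 to 337 CPM in γδ and 59.8 to 146 CPM in CD4+ libraries. The 2 CD8 genes summed to 69.9 to 327 CPM and 2.995 to 12.8 CPM. Some other lists are given beside the results, and the part of any list in a difference was not tested. In bulk RNA fewer cells of a type and less RNA per cell cannot be told apart.

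**Figure D1:**
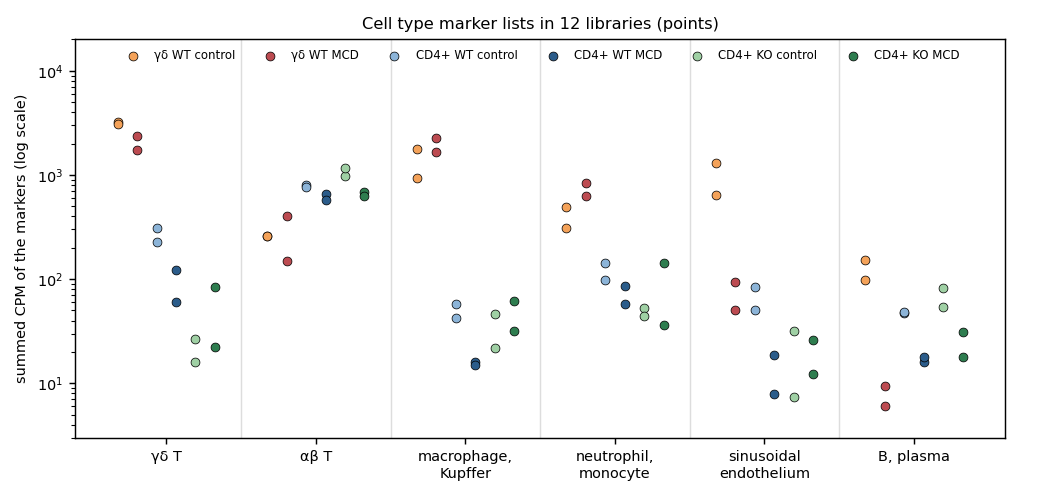
Summed CPM of 6 marker lists (logarithmic vertical axis) in the 12 libraries, coloured by group, 1 point per library. The macrophage list lies at 935 to 2280 CPM in γδ and at 15.1 to 61.4 CPM in CD4+ libraries, and the sinusoidal endothelium list is highest in γδ cells of the control diet (637 to 1288 CPM).

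γδ T cells were set against CD4+ T cells of wild-type mice within each diet, which asks how far the programme belongs to the γδ compartment. Il23r, Il1r1, Il18r1, Sox13, Blk, Cd163l1, Tmem176a and Il17a read higher in both γδ libraries than in both CD4+ libraries on either diet, whereas Il17f was close to 0 in all 12. With edgeR's quasi-likelihood test and Benjamini-Hochberg adjustment over all 16218 genes tested (threshold 0.05), 3 of the 8 genes tested passed on the control diet (Il18r1, Sox13 and Cd163l1), where 0.654% of all genes passed. On the MCD diet 4 of 8 passed (those 3 and Il23r), against 2.65% of all genes. The 2 comparisons share no library, but all 12 were fitted together with a shared estimate of the spread, so their p-values are not independent. All 8 were higher in γδ cells with no overlap between the groups, as were 20.1% of all genes tested on the control diet and 14.5% on the MCD diet. The median log2 difference of the 8 was 5.31 on the control and 5.80 on the MCD diet, beside medians of -0.06 and -0.30 over all genes tested. Il17f had too few counts for the filter, and Il17a, Sox13 and Cd163l1 passed it only through the γδ libraries, so that the 8 include genes that had to be higher there and their counts and medians are a description only. With the γδ MCD replicate 2 left out, 5 of 8 passed on the MCD diet beside 5.46% of all genes, and 4 of 8 beside 12.9% with replicate 4 left out.

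**Figure D2:**
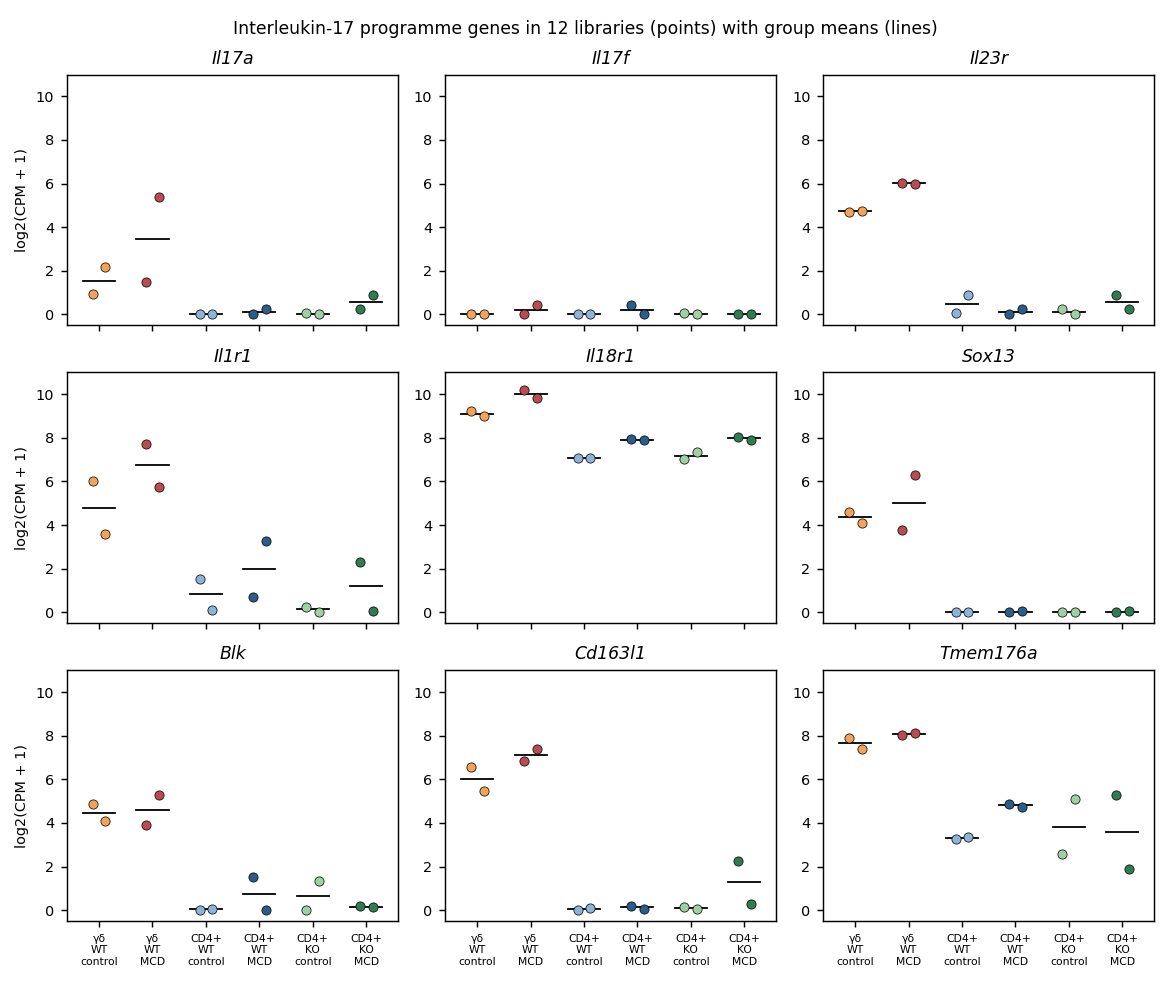
Level of each of the 9 genes as log2(CPM + 1) in the 12 libraries (points, coloured by group) with the group mean as a line, on a common vertical axis. Il18r1 is the only 1 of the 9 above 128 CPM in every library, Sox13 is at or near 0 in all CD4+ libraries, and the γδ MCD pair is far apart for Il17a, Sox13 and Il1r1.

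Il17a encodes interleukin-17A, the defining cytokine of the programme. Its counts were 18 and 64 in γδ cells of the control diet (0.916 and 3.47 CPM) and 22 and 605 in those of the MCD diet (1.82 and 40.6 CPM). In CD4+ cells it had 0 and 0 counts in wild-type control, 0 and 4 in wild-type MCD, 1 and 0 in knockout control and 4 and 19 in knockout MCD libraries. The γδ libraries were all above their wild-type CD4+ counterparts, but 1 library, γδ MCD replicate 4, held most of the Il17a reads of the study. Against the wild-type CD4+ control libraries, both at 0, the γδ level was at least 16.3-fold higher, and on the MCD diet the ratio of means was 230. Neither difference passed (adjusted p = 0.282 and 0.116, edgeR), and without γδ MCD replicate 2 the second had an adjusted p of 0.0473. DESeq2, with all libraries, passed both (adjusted p = 0.0132 and 0.00108). Il17a passed the filter only through the γδ libraries, so these tests between cell types are a description.

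Il17f encodes interleukin-17F, the closest relative of Il17a, with which it forms a heterodimer. It had 5 counts in γδ MCD replicate 4, 7 in wild-type CD4+ MCD replicate 1, 1 in knockout control replicate 1 and 0 in the other 9 libraries. At this depth no difference of Il17f between groups was detectable. The neighbouring Il17a had 605 counts in the library where Il17f had 5, in FPKM, which scales counts by gene length, 34.2 and 0.16.

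Il23r encodes the specific chain of the interleukin-23 receptor, whose ligand maintains cells that make interleukin-17. It read 25.3 and 25.7 CPM in γδ control and 65.0 and 62.1 CPM in γδ MCD libraries. In the 8 CD4+ libraries it had 0 to 20 counts, at most 0.875 CPM. The replicates of each γδ group lay within 1.05-fold of each other. The γδ mean was 55.8-fold higher than wild-type CD4+ cells on the control diet (log2 difference 5.51, adjusted p = 0.194) and 688-fold higher on the MCD diet, where it passed (log2 difference 8.35 ± 1.77 SE, adjusted p = 0.0285, edgeR). That call rests on the CD4+ MCD pair, with 0 and 4 counts: the adjusted p was 0.189 without replicate 1 and 0.129 without replicate 3. It was lost as well when only the groups compared were fitted (0.0866).

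Il12rb1 encodes the second chain of the interleukin-23 receptor and is shared with the interleukin-12 receptor. It read 68.0 and 56.3 CPM in γδ control and 21.7 and 5.17 CPM in γδ MCD libraries, and 14.3 to 66.3 CPM in CD4+ libraries. The γδ MCD libraries were thus above the γδ control libraries for Il23r and below them for its partner, and the diet difference of Il12rb1 in γδ cells, -2.20 on the log2 scale, had an adjusted p of 0.230 (edgeR).

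Il1r1 encodes the signalling receptor of interleukin-1. Its counts were 1258 and 202 in γδ control (64.0 and 10.9 CPM) and 2571 and 793 in γδ MCD libraries (212 and 53.3 CPM). Wild-type CD4+ cells had 41 and 2 counts on the control and 13 and 186 on the MCD diet, and knockout CD4+ cells 4, 0, 87 and 1. γδ cells were higher than wild-type CD4+ cells by 38.0-fold on the control and 28.8-fold on the MCD diet with no overlap, and neither difference passed (adjusted p = 0.348 and 0.164, edgeR). The spread within pairs was wide in both cell types, 5.85-fold and 3.98-fold in the γδ pairs. Endothelial cells also express Il1r1. The 8 sinusoidal endothelium markers summed to 637 to 1288 CPM in γδ control and 50.5 to 94.2 CPM in γδ MCD libraries, with Kdr, Oit3 and Lyve1 at 0 in both MCD libraries but Dnase1l3 at 609 and 226 and Fcgr2b at 530 and 277 counts. The part of endothelial RNA in the Il1r1 values was not tested.

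Il18r1 encodes the ligand-binding chain of the interleukin-18 receptor, found on type 1 and type 17 cells alike. It was the most abundant of the 9 genes in every library, also per gene length (24.7 to 243 FPKM). Counts were 11670 and 9296 in γδ control (594 and 503 CPM), 13983 and 13293 in γδ MCD (1154 and 893 CPM), 2923 and 3093 in wild-type CD4+ control (134.5 and 134.1 CPM) and 4932 and 5131 in wild-type CD4+ MCD libraries (242 and 237 CPM). Knockout CD4+ libraries had 128 and 161.5 CPM on the control and 261 and 241 CPM on the MCD diet. γδ cells were 4.08-fold higher than wild-type CD4+ cells on the control diet (log2 difference 2.03 ± 0.252 SE, adjusted p = 0.00167) and 4.27-fold higher on the MCD diet (2.09 ± 0.253, adjusted p = 0.00113, edgeR). It passed in both diets with each library left out in turn and in all 11 other settings tried.

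The other interleukin-1 receptor genes of the cluster were measured as well. Il1rl1, the receptor of interleukin-33, had 0, 1, 0 and 1 counts in γδ and 63 to 644 counts in CD4+ libraries (log2 difference -6.92 on the control diet, adjusted p = 0.0868, and -5.48 on the MCD diet, adjusted p = 0.0715, edgeR). Il1rl2, the interleukin-36 receptor, had 4 and 0 counts in γδ control, 0 and 60 in γδ MCD and 116 to 328 in CD4+ libraries (adjusted p = 0.256 and 0.328, edgeR). Il18rap, the partner chain of Il18r1, read 52.1 to 198 CPM in γδ and 31.4 to 86.6 CPM in CD4+ libraries (adjusted p = 0.911 and 0.449). The decoy receptor gene Il1r2 had at most 46 counts in any library. Along the cluster, γδ cells thus read higher than wild-type CD4+ cells at Il1r1 and Il18r1 with no overlap and lower at Il1rl1 and Il1rl2 with no overlap, on either diet, and of these 4 genes only Il18r1 passed the test. Among all genes tested, 25.8% on the control and 32% on the MCD diet were lower in γδ cells without overlap.

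**Figure D3:**
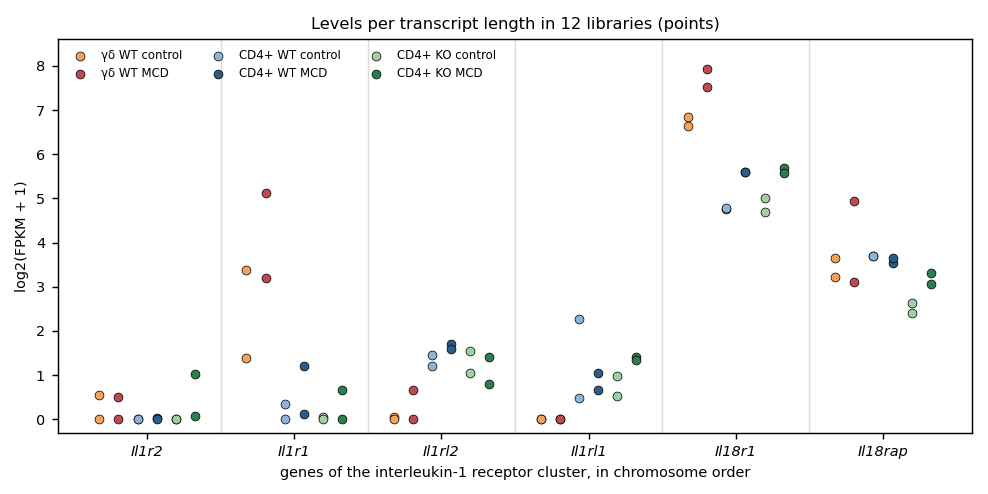
Level per gene length, as log2(FPKM + 1), of 6 genes of the interleukin-1 receptor cluster in chromosome order, 1 point per library, coloured by group. γδ libraries lie above CD4+ libraries at Il18r1 (99.0 to 243 against 24.7 to 51.0 FPKM) and below them at Il1rl1 (0 to 0.01 against 0.39 to 3.86 FPKM), with overlap at Il18rap.

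Sox13 encodes a SOX transcription factor required for γδ T cells that make interleukin-17. It had 461 and 294 counts in γδ control (23.4 and 15.9 CPM) and 154 and 1146 in γδ MCD libraries (12.7 and 77.0 CPM). The 8 CD4+ libraries held 2 Sox13 counts in all, 1 in knockout MCD replicate 2 and 1 in wild-type MCD replicate 3. Sox13 passed the filter only through the γδ libraries. It had to be higher there to be tested, so its calls between cell types are a description. The groups were separate in either diet, and the 2 MCD replicates stood 6.06-fold apart, in the same direction as for Il17a. On the control diet the γδ level was at least 147-fold higher (log2 difference 7.61 ± 1.43 SE, adjusted p = 0.0363), and on the MCD diet the ratio, over 1 CD4+ count, was 2020 with an exact 95% counting interval of 362 to 79900 (8.49 ± 1.60, adjusted p = 0.0234, edgeR). The control call was lost without either wild-type CD4+ control library (adjusted p = 0.333 without replicate 2 and 0.364 without replicate 3), without γδ control replicate 6 or 7 (0.105 and 0.111) and without wild-type CD4+ MCD replicate 1 (0.0505). It was lost as well under library-size scaling (0.0612) and on log2(FPKM + 1) (0.122). The MCD call was lost without wild-type CD4+ MCD replicate 1 (0.176) or 3 (0.139) and when only the groups compared were fitted (0.107).

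Of the other SOX and TCF family genes on the list, Sox4, Sox5, Tcf7, Lef1, Tcf12 and Tcf3 were tested and 0 passed in either diet in edgeR or limma-voom. An unadjusted p under 0.05 was found for 2 on the control and 4 on the MCD diet, and DESeq2 passed 1 and 2. Tcf7, a factor of naive and memory T cells, was the most abundant of the list in every library, followed by Tcf12 in the γδ and by Lef1 in the CD4+ libraries.

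Blk encodes a kinase of the SRC family known from B cells and from γδ T cells that make interleukin-17. Its counts were 548 and 294 in γδ control (27.9 and 15.9 CPM) and 172 and 568 in γδ MCD libraries (14.2 and 38.2 CPM). CD4+ libraries had 0 and 1 in wild-type control, 38 and 0 in wild-type MCD, 0 and 31 in knockout control and 3 and 2 in knockout MCD. In 3 of these 4 CD4+ pairs a single library held all Blk reads. γδ cells were higher by a ratio of 989 over 1 CD4+ count on the control diet (exact 95% counting interval 177 to 39100, adjusted p = 0.186) and 28.0-fold on the MCD diet (adjusted p = 0.209, edgeR), and neither passed. The 7 B and plasma cell markers summed to 99.0 to 154 CPM in γδ control, 6.11 to 9.34 CPM in γδ MCD and 16.1 to 82.4 CPM in CD4+ libraries. The part of these cells in the Blk values was not tested.

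Among the SRC family, Lyn was the only 1 of 7 genes tested that passed, in both diets, beside 0.654% and 2.65% of all genes. It is a kinase of myeloid and B cells and read 75.0 and 172 CPM in γδ control, 231 and 102 CPM in γδ MCD and 2.07 to 10.2 CPM in CD4+ libraries (log2 difference 5.50, adjusted p = 0.00825, and 5.59, adjusted p = 0.00602, edgeR). The control call was lost without wild-type CD4+ control replicate 2 (adjusted p = 0.159) or 3 (0.102), without γδ control replicate 7 (0.0697) and with limma-voom (0.0632), and the MCD call without wild-type CD4+ MCD replicate 1 (0.0597) or 3 (0.109). The macrophage list was 935 to 2280 CPM in the same γδ libraries, and its part in the Lyn and Blk values was not tested. Lck, the main SRC kinase of T cells, read 96.0 and 96.6 CPM in γδ control, 2.06 and 85.5 CPM in γδ MCD and 70.3 to 140 CPM in CD4+ libraries.

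Cd163l1 encodes SCART1, a scavenger receptor of γδ T cells that make interleukin-17. Counts were 1857 and 790 in γδ control (94.5 and 42.8 CPM) and 1360 and 2518 in γδ MCD libraries (112 and 169 CPM). CD4+ libraries had 0 and 2 in wild-type control, 3 and 1 in wild-type MCD, 2 and 1 in knockout control and 81 and 5 in knockout MCD. Knockout MCD replicate 1, at 3.73 CPM, was the only CD4+ library above 0.230 CPM. Cd163l1 passed the filter only through the γδ libraries, so its calls between cell types are a description. The ratio to wild-type CD4+ cells, over 2 counts, was 1560 on the control diet (exact 95% counting interval 430 to 12800, log2 difference 8.88 ± 1.31 SE, adjusted p = 0.00547), and on the MCD diet it was 1450 (9.48 ± 1.36, adjusted p = 0.00407, edgeR). The calls were lost without wild-type CD4+ control replicate 2 (adjusted p = 0.0899) or 3 (0.0511) and without wild-type CD4+ MCD replicate 1 (0.0581) or 3 (0.0903), and held in all 11 other settings.

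Tmem176a encodes a membrane protein of interleukin-17 producing lymphocytes that dendritic cells and macrophages also express. It had 4723 and 3114 counts in γδ control (240 and 169 CPM) and 3203 and 4100 in γδ MCD libraries (264 and 275 CPM). Wild-type CD4+ cells read 8.70 and 9.28 CPM on the control and 28.4 and 25.5 CPM on the MCD diet, and knockout CD4+ cells 4.88 and 33.1 CPM on the control and 37.2 and 2.71 CPM on the MCD diet. Wild-type pairs were close together and knockout pairs 6.79-fold and 13.7-fold apart. γδ cells were 22.7-fold higher on the control diet (log2 difference 4.49, adjusted p = 0.0772) and had a mean of 269.9 against 26.9 CPM on the MCD diet (3.32, adjusted p = 0.0841, edgeR), and neither passed. The adjacent Tmem176b read 106 to 150 CPM in the γδ and 0.878 to 33.4 CPM in the CD4+ libraries (adjusted p = 0.212 and 0.275). Dendritic cell markers summed to 8.44 to 47.0 CPM in γδ and 2.95 to 49.2 CPM in CD4+ libraries, and the part of the macrophage list in the Tmem176a values was not tested.

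**Figure D4:**
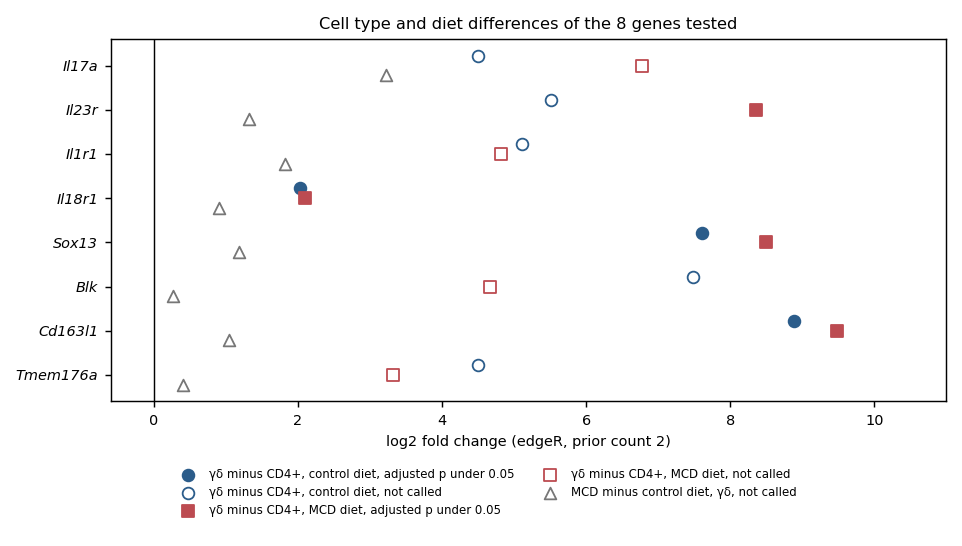
Fitted log2 fold change (horizontal axis, edgeR with a prior count of 2) of the 8 genes tested, for γδ minus CD4+ T cells on each diet and for MCD minus control diet in γδ cells; filled symbols passed at an adjusted p under 0.05. Il18r1, Sox13 and Cd163l1 are filled on both diets and Il23r on the MCD diet, and no diet difference is filled. Il17a, Sox13 and Cd163l1 passed the filter only through the γδ libraries.

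Per gene length, the order of the mean level in γδ control cells was Il18r1 (107 ± 10.9 FPKM, SD, n = 2), Tmem176a (50.2 ± 11.7), Cd163l1 (16.6 ± 8.66), Il23r (9.60 ± 0.240), Blk (7.59 ± 2.83), Il1r1 (5.48 ± 5.44), Sox13 (4.28 ± 1.10) and Il17a (1.76 ± 1.46), with Il17f at 0. The values of Il18r1, Tmem176a, Cd163l1 and Il23r did not overlap with each other, whereas those of Il23r, Blk, Il1r1 and Sox13 overlapped with a neighbour. On the MCD diet the order was Il18r1 (213 ± 42.6 FPKM), Tmem176a (70.7 ± 0.615), Cd163l1 (36.4 ± 9.70), Il23r (25.5 ± 1.32), Il1r1 (21.0 ± 18.1), Il17a (17.9 ± 23.1), Sox13 (10.3 ± 10.3) and Blk (9.63 ± 6.08). Il23r, Il1r1, Il17a, Sox13 and Blk each overlapped with the next in this order, while Il23r (24.6 and 26.4 FPKM) did not overlap with Sox13 (2.99 and 17.6 FPKM) or Blk (5.33 and 13.9 FPKM). In CD4+ cells Il18r1 (24.7 to 51.0 FPKM) came first and Tmem176a (0.67 to 9.19 FPKM) had the next highest median, and the other 7 genes were at or below 1.31 FPKM in all 8 libraries.

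The diets were compared in γδ cells to ask whether MCD feeding moved the programme. All 8 genes tested had a higher mean on the MCD diet, and 0 of 8 passed in edgeR, where 0% of all genes passed (2839 of 16218 had an unadjusted p under 0.05). Of the 8, Il18r1 alone had an unadjusted p under 0.05, and both DESeq2 and limma-voom passed Il18r1 (adjusted p = 0.0116 and 0.0393), the only 1 of the 8, beside 12.8% and 0.388% of all genes. Il23r, Il18r1, Cd163l1 and Tmem176a were higher without overlap, 4 of 8 beside 11.1% of all genes tested. The median log2 difference was 1.11, beside -0.06 over all genes tested.

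Il18r1 was 1.87-fold higher on the MCD diet in γδ cells (log2 difference 0.90, adjusted p = 0.1245, edgeR), and without γδ MCD replicate 4 the adjusted p was 0.0218. Il23r was 2.49-fold higher (adjusted p = 0.636), Cd163l1 2.05-fold (0.596) and Tmem176a 1.32-fold (0.868). The mean of Il17a was 9.69-fold higher (log2 difference 3.22, adjusted p = 0.397), and without replicate 4 the log2 difference was -0.25, since replicate 2 lay between the 2 control libraries. Sox13 and Blk had log2 differences of 1.18 and 0.26, which became -0.62 and -0.62 without replicate 4, and that of Blk was -0.073 without γδ control replicate 7. Il1r1 went from 1.82 to 0.53 without γδ MCD replicate 2.

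The 2 γδ MCD libraries differed from each other by gene. Il17a, Sox13 and Blk were 22.4-fold, 6.06-fold and 2.69-fold higher in replicate 4 and Il1r1 was 3.98-fold higher in replicate 2, while Cd163l1 was 1.51-fold apart and Il23r, Tmem176a and Il18r1 were within 1.29-fold. The αβ constant genes also differed, Trac with 365 counts in replicate 2 and 1298 in replicate 4 and Trbc2 with 195 and 2127. The 8 neutrophil and monocyte markers summed to 836 and 632 CPM in replicates 2 and 4 of this pair, against 310 and 494 CPM in the control pair. Of that list, Ccr2 alone read 633 and 317 CPM in replicates 2 and 4. Counts in replicates 2 and 4 were 34 and 1019 for S100a9, 30 and 211 for S100a8, 1116 and 1268 for Csf3r and 621 and 1588 for Clec4e. Retnlg, a neutrophil marker, was at 0 in all 12 libraries. The part of these cells in the Il17a difference was not tested.

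Between diets 0 of 8 genes passed in wild-type CD4+ T cells in edgeR, DESeq2 or limma-voom, where 0% of all genes passed in edgeR (346 had an unadjusted p under 0.05), and Il18r1 alone of the 8 had an unadjusted p under 0.05. Il18r1 and Tmem176a were higher on the MCD diet without overlap, 2 of 8 beside 16.7% of all genes tested. Il17a, Sox13 and Cd163l1 passed the filter only through the γδ libraries. They had 4, 1 and 4 counts on the MCD and 0, 0 and 2 on the control diet, too few to show a difference. Il18r1 was 1.78-fold higher (log2 difference 0.84, adjusted p = 1, edgeR) and Tmem176a had a mean of 26.9 against 8.99 CPM (1.57, adjusted p = 1). Il1r1 was uneven within the MCD pair, with 13 and 186 counts.

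In knockout CD4+ T cells 0 of 8 passed between diets in edgeR or limma-voom, where 0.037% of all genes passed in edgeR, and Il18r1 and Cd163l1 had an unadjusted p under 0.05. Il17a, Il18r1 and Cd163l1 were higher on the MCD diet without overlap, 3 of 8 beside 20.8% of all genes tested. Il18r1 was 1.73-fold higher (log2 difference 0.79, adjusted p = 0.557), close to the 1.78-fold of wild-type and the 1.87-fold of γδ cells. The difference between those diet effects was small in both interaction terms (log2 0.065 for γδ against wild-type CD4+ cells, and -0.042 for knockout against wild-type CD4+ cells, adjusted p = 1 and 1, edgeR), which does not show that they are equal. Cd163l1 rested on the 81 counts of replicate 1 (log2 difference 3.58, adjusted p = 0.416, and 0.0176 in DESeq2), and the lowest estimate with a library left out was 0.92. Il17a had 4 and 19 counts on the MCD diet against 1 and 0. Sox13, with 1 count on the MCD and 0 on the control diet, had too few to show a difference.

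Between genotypes 0 of 8 genes passed on the control diet, where 0.0247% of all genes passed, and 0 of 8 on the MCD diet, where 0% passed (337 had an unadjusted p under 0.05), in edgeR, DESeq2 and limma-voom alike. On the control diet 0 of 8 had an unadjusted p under 0.05 and 0 were higher in knockout cells without overlap, beside 16.7% of all genes tested. Il17a, Sox13 and Cd163l1 passed the filter only through the γδ libraries. On the control diet they had 1, 0 and 3 counts in knockout and 0, 0 and 2 in wild-type cells, too few to show a difference. Sox13 had 1 and 1 on the MCD diet. On the MCD diet Cd163l1 alone had an unadjusted p under 0.05 (log2 difference 3.40, adjusted p = 1) and was higher without overlap, 1 of 8 beside 15.9% of all genes tested. Il18r1 differed by 0.11 on the control and 0.067 on the MCD diet (log2, adjusted p = 1 and 1, edgeR).

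Neither interaction passed for any of the 8 genes, nor for any gene tested (0% in each). For diet by cell type 0 of the 8 had an unadjusted p under 0.05, and 1714 of all genes did. For diet by genotype Blk alone of the 8 did (log2 -5.04, adjusted p = 1, edgeR), beside 703 of all genes, and it rests on the 38 counts of wild-type MCD replicate 1 and the 31 counts of knockout control replicate 2. DESeq2 and limma-voom passed 0 of the 8 in either interaction. Both terms use the wild-type CD4+ libraries, where Il17a, Sox13 and Cd163l1 had few counts.

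The transcription factors, receptors and markers known to work with these genes were taken from lists. Rora, a nuclear receptor gene of type 17 cells, read 241 and 285 CPM in γδ control, 303 and 290 CPM in γδ MCD and 62.5 to 232 CPM in CD4+ libraries (adjusted p = 0.426 and 0.192). Maf, needed by cells of this kind, read 146 to 180 CPM in γδ libraries. In CD4+ cells of knockout mice it was higher on the MCD diet, with 43.9 and 36.7 CPM on the control and 261 and 270 CPM on the MCD diet. Its log2 difference was 2.72 (adjusted p = 0.0155, edgeR), where 0.037% of all genes passed. This call was lost without any 1 of the 4 knockout libraries (adjusted p = 0.263 and 0.221 without control replicate 1 or 2, and 0.129 and 0.0985 without MCD replicate 1 or 2), and held in all 12 other settings.

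Of 18 surface and other markers of γδ T cells that make interleukin-17, 0 passed on the control diet in edgeR, where 0.654% of all genes did (10 had an unadjusted p under 0.05, and DESeq2 passed 6 and limma-voom 3), and 3 were higher in γδ cells on the MCD diet: the chemokine receptor gene Ccr2, the adhesion receptor gene Cd44 and the potassium channel gene Kcnk1 (adjusted p = 0.0185, 0.0272 and 0.0466, edgeR), where 2.65% of all genes passed. Each of the 3 was lost without either wild-type CD4+ MCD library (adjusted p = 0.110 to 0.237) and with only the groups compared (0.0639 to 0.172), and Kcnk1 also without any 1 of the 4 knockout or 2 wild-type CD4+ control libraries (0.0540 to 0.0677). Kcnk1 had 0 to 2 counts in the CD4+ libraries and passed the filter only through the γδ libraries, so its call is a description. Ccr2 is a monocyte gene too and stands on the neutrophil and monocyte list. Ccr6, the chemokine receptor of type 17 cells, read 17.7 and 20.7 CPM in γδ control, 34.8 and 12.03 CPM in γδ MCD and 0 to 14.2 CPM in CD4+ libraries (adjusted p = 0.212 and 0.287). Of 22 partners and signalling genes of interleukin-23, interleukin-1 and interleukin-18, 1 was higher in γδ cells on the control diet (Il1rn) and 2 on the MCD diet (Il1rn and Tgfbr1), beside the same shares of all genes. Both Il1rn calls held with each library left out, and that of Tgfbr1 was lost without wild-type CD4+ MCD replicate 1 (adjusted p = 0.204) or 3 (0.181). Il1rn encodes the interleukin-1 receptor antagonist, a product of myeloid cells, and read 48.0 and 106 CPM in γδ control, 299 and 337 CPM in γδ MCD and 0 to 9.34 CPM in CD4+ libraries (adjusted p = 0.00119 and 0.00131, edgeR). In knockout CD4+ cells it was higher on the MCD diet, with 1.52 and 9.34 against 0 and 0.0481 CPM (log2 difference 5.46, adjusted p = 0.0356, edgeR). There 0.037% of all genes passed. That diet call held in 6 of 12 other settings and was lost in some fits that leave out 1 library. The macrophage list read 935 to 2280 CPM in γδ and 15.1 to 61.4 CPM in CD4+ libraries, and its part in the Il1rn values was not tested. Il1rap, the shared interleukin-1 receptor chain, read 0.0672 to 13.6 CPM in γδ and 0.369 to 9.18 CPM in CD4+ libraries.

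Of the other type 17 cytokines, 5 of 11 had enough counts to be tested and 0 passed in either diet in edgeR (1 on each diet had an unadjusted p under 0.05, and DESeq2 passed 1 on each diet). Il22, a product of many type 17 cells, had 0 counts in all 12 libraries, as had Il17b and Il17d. Of the 7 interleukin-17 receptor and adaptor genes tested, 0 passed on the control diet in edgeR, DESeq2 or limma-voom (1 had an unadjusted p under 0.05) and 1 was higher in γδ cells on the MCD diet: Traf6, the ubiquitin ligase downstream of the receptor, with 375 and 200 CPM against 58.5 and 80.4 CPM (adjusted p = 0.0323, edgeR). It was lost without either wild-type CD4+ MCD library (adjusted p = 0.221 and 0.153), without γδ MCD replicate 2 (0.0604) and without wild-type CD4+ control replicate 2 (0.0501). Il17ra, the receptor chain itself, read 190 to 314 CPM in γδ and 177 to 418 CPM in CD4+ libraries.

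The interferon-γ counterpart of the programme was measured in the same cells. Of 17 such genes tested, 2 were higher in γδ cells on the control diet (Ncr1 and Ccl5), where 0.654% of all genes passed, and 3 on the MCD diet (Il2rb, Ncr1 and Ccl5), where 2.65% did. Ncr1, with 0 to 55 counts in CD4+ libraries, passed the filter only through the γδ libraries, so its calls are a description. It also stands on the innate lymphoid and NK cell list, whose part in the Ncr1 values was not tested. Ncr1 on the control diet was lost with any 1 of the 4 libraries compared left out (adjusted p = 0.0871 to 0.209), and the 3 MCD calls were lost without either wild-type CD4+ MCD library (0.153 to 0.181) and with only the groups compared (0.268 to 0.349). Il2rb was lost as well without γδ MCD replicate 2 (0.0679). Ifng read 12.8 and 6.44 CPM in γδ control and 58.2 and 32.6 CPM in γδ MCD, and 7.61 to 55.2 CPM in CD4+ libraries, with a diet difference in γδ cells of 2.22 on the log2 scale (adjusted p = 0.216, edgeR). Tbx21, its transcription factor, read 20.3 to 67.7 CPM in γδ libraries. In knockout CD4+ cells Ccl5 read 25.5 and 31.9 CPM on the control and 128 and 166 CPM on the MCD diet. Its log2 difference was 2.35 (adjusted p = 0.0356, edgeR), where 0.037% of all genes passed. That diet call was lost in most fits that leave out 1 library. Cd27, a receptor that γδ T cells making interleukin-17 lack, read 133 and 87.5 CPM in γδ control, 61.7 and 160 CPM in γδ MCD and 114 to 208 CPM in CD4+ libraries. The γδ libraries thus held transcripts of both programmes, and bulk RNA does not show whether single cells did.

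Likeness was measured as the mean absolute difference of log2(CPM + 1), centred on the mean of each gene over the 12 libraries, among 9492 candidate genes, and is a description. Within the 8 genes, Sox13 and Blk were the closest pair (0.41), followed by Il23r and Sox13 (0.50), and Il18r1 and Cd163l1 were the farthest (1.85). The 3 genes most like Il23r were Marcks (0.32), Aoah (0.38) and Pilra (0.40), and those most like Sox13 were Mmp14 (0.27), C5ar1 (0.36) and Lingo4 (0.41). Il17a was closest to Mreg (0.32), Cxcl2 (0.33) and S100a9 (0.34), Il1r1 to Ceacam1, Deptor and Ifitm3 (0.62 to 0.76), and Cd163l1 to Tns4, Csf2rb and Aoah (0.56 to 0.62). Il18r1 was closest to Serinc3, Bmpr2 and Ccdc50 (0.25 to 0.30), Blk to Sox13, Phf11d and Tyrobp (0.41 to 0.53), and Tmem176a to Blk, Tlr7 and Tmem176b (0.66 to 0.70). Several of these genes are known from myeloid cells (Aoah, Pilra, C5ar1, Cxcl2, S100a9, Csf2rb, Tyrobp and Tlr7). Apart from Il17a, Cxcl2 and S100a9, they and the 8 genes are mainly high in the same 4 γδ libraries. Those libraries also hold the macrophage list at 935 to 2280 CPM. Il17a and S100a9 read 40.6 and 68.5 CPM in γδ MCD replicate 4, and 0.916 to 3.47 and 0 to 2.81 CPM in the other γδ libraries. Cxcl2 ranged from 0 to 38.9 CPM over the γδ libraries.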

How the data were processed

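RNA of 12 libraries in 6 labelled groups of 2 was analysed. Per the submitters' processing notes, bcl2fastq, STAR, featureCounts and DESeq2 were used on the mm10 (GRCm38) build; versions, annotation and counting strand are not given in the sources used here. Raw counts and, in a second file, FPKM values are what the authors deposited; counts per FPKM followed 1 factor per library in all 9367 genes checked (within 5%), but this factor was not proportional to the total count. FPKM was used for levels between genes and as an alternative.

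Genes were kept by filterByExpr (minimum count 10, minimum total 15), which left 16218 of 52459. All 12 libraries were fitted with 1 coefficient per group by edgeR 4.0.16 (TMM, quasi-likelihood, 2-sided, prior count 2) under R 4.3.3, with Benjamini-Hochberg adjustment over all genes tested and a threshold of 0.05. SE is the log2 fold change divided by the square root of its F value. Folds are ratios of mean CPM; a group at 0 was set at 3 counts per library, and ratios over 1 to 3 counts carry an exact 95% interval of counting error. Total counts of 17035638 to 23203603 set the precision, a floor of 0.13 to 0.248 CPM.

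The 9 genes and all lists were chosen with earlier results of these data known. Named beside the 9 genes were list genes that passed or were among the 4 most abundant of their list (partly under the closing observations), a fixed set (among them Rora, Maf, Ccr6, Tmem176b, Il12rb1, Il1rap, Il18rap, Il22, Ifng, Tbx21, Cd27), cluster neighbours and the 3 genes most like each of the 8 tested (protein-coding, at least 5 CPM in a group). Alternatives were RLE and library-size scaling, no mitochondrial genes, DESeq2 1.42.0, limma-voom (limma 3.58.1), no filter, a mean of at least 50 counts, limma on log2(FPKM + 1) and log2(FPKM + 0.1), only the groups compared, a prior count of 0.125, a replicate block and leaving out each library. No pair of libraries held identical counts. Promoter sequences are from RefSeq (GRCm38.p6); proteins were not analysed here. Some genes of the lists are not reported here.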

Additional observations from a re-analysis of the deposited data

How the results depend on the processing

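With 2 libraries per group, fits that leave out 1 library assume that the lone library varies like the other groups. Of the 9 genes, Il18r1 passed between cell types on both diets in every setting and with every library left out; other calls rested on CD4+ libraries with 0 to 4 counts. Leaving out each library gave 1 to 4 passing genes on the control and 1 to 5 on the MCD diet between cell types, 0 to 1 for diet in γδ cells (1 without γδ MCD replicate 4) and 0 in all other comparisons. The lowest values, 1, came without wild-type CD4+ control replicate 2 or 3 and without wild-type CD4+ MCD replicate 1 or 3.

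Il17a, Sox13 and Cd163l1 met the main filter only through the γδ libraries, so tallies between cell types are a description. Between cell types on the control diet 3 genes passed, and 7 did with DESeq2, 6 with limma-voom, 7 without a filter, 5 on log2(FPKM + 1) and 5 with only the groups compared. On the MCD diet 4 passed, and 7 with DESeq2; with only the groups compared Il23r and Sox13 were lost and Tmem176a passed (adjusted p = 0.0866, 0.107 and 0.0460). For diet in γδ cells 0 passed, and 1 with DESeq2 and 1 with limma-voom. For diet in knockout CD4+ cells 0 passed, and 1 with DESeq2 and 2 without a filter; between genotypes on the MCD diet 0 passed, and 1 without a filter. Over all genes, 106 passed on the control diet (914 with DESeq2, 27 without wild-type CD4+ control replicate 2) and 430 on the MCD diet (62 with only the groups compared, 2853 with DESeq2, 47 without wild-type CD4+ MCD replicate 3 and 2095 without γδ MCD replicate 4). For diet in γδ cells 0 genes passed, 2070 with DESeq2 and 1342 without γδ MCD replicate 4. Among the list genes, library-size scaling lost Cd44, Kcnk1, Tgfbr1, Traf6, Il2rb and Ccl5 on the MCD diet (adjusted p = 0.0502 to 0.227), and fitting only the groups compared lost these, Ccr2 and Ncr1 (0.0639 to 0.349). The cause of these differences was not tested.

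Reversed log2 differences, none of which passed, were those of Il18r1 under library-size scaling (-0.26 between genotypes on the control diet, -0.17 for diet by cell type and 0.26 for diet by genotype) and of Tmem176a for diet in knockout cells (-0.34 with limma-voom, -0.12 and -0.28 on log2(FPKM + 1) and log2(FPKM + 0.1)). Leaving out 1 library gave log2 ranges that crossed 0 for diet in γδ cells in Il17a (-0.25 to 4.41), Sox13 (-0.62 to 1.99) and Blk (-0.62 to 0.82), each lowest without MCD replicate 4. The same held for Tmem176a in diet in knockout cells (-2.76 to 2.01), between genotypes on the control (-0.87 to 1.88) and the MCD diet (-3.26 to 0.47) and in diet by genotype (-4.33 to 0.44). For Il18r1 they were -0.068 to 0.27 between genotypes on the control diet, -0.11 to 0.24 for diet by cell type and -0.21 to 0.14 for diet by genotype.

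The replicate block could be fitted only for diet in knockout CD4+ cells, whose groups share the numbers 1 and 2. Deviations of same-numbered libraries did not correlate (r = -0.000833 across genes). A single correlation over all genes cannot show whether some genes share a pairing, and no label pairs these libraries. With the replicate block 0 of the 8 genes passed, as without it. Over all genes 204 passed, against 28 in the same 4 libraries without the block and 6 in the fit of all 12 libraries. With the block the log2 differences were 0.78 for Il18r1 (adjusted p = 0.228), 2.79 for Cd163l1 (0.871) and -0.34 for Tmem176a (0.999).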

Other observations

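Further abundant list genes that the comparisons above do not describe read as follows, none of them past an adjusted p of 0.05 between γδ and wild-type CD4+ T cells on either diet (edgeR). Among cytokine genes, Il21, a product of helper T cells, had 0 counts in all 4 γδ libraries and 0 to 27.2 CPM in CD4+ libraries. The highest Il21 values were those of the knockout MCD libraries, 24.5 and 27.2 CPM, against 0 and 0 in knockout control libraries. In γδ and CD4+ libraries Tnf read 4.87 to 22.1 and 2.31 to 29.4 CPM, Il2 0.537 to 14.4 and 0.577 to 5.29 CPM and Lta 0.0672 to 8.83 and 0.0920 to 6.97 CPM. Gzmb, a cytotoxic protease gene, read 104 to 653 CPM in γδ and 7.12 to 85.1 CPM in CD4+ libraries, with no overlap. Fgr, a SRC family kinase of myeloid cells, read 35.0 to 112 and 0 to 15.3 CPM, and the macrophage list was 935 to 2280 and 15.1 to 61.4 CPM in the same libraries. Its part was not tested.

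Tcf7, a transcription factor of naive and memory T cells, read 257 to 337 CPM in γδ and 379 to 1086 CPM in CD4+ libraries, and Tcf12 read 166 to 256 and 97.3 to 150 CPM, each with no overlap between the cell types. The ranges overlapped for Lef1 (59.3 to 184 and 173 to 563 CPM), for Bcl11b (110 to 178 and 153 to 359 CPM) and for Icos (23.9 to 112 and 70.1 to 199.7 CPM). They overlapped as well for Tcf3, Il7r, Fyn, Runx1, Stat3, Jak2, Il6st, Tgfbr2, Nfkbiz and Traf3ip2.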
